A study of Arabidopsis thaliana with 8 samples.

Results

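In leaves of Arabidopsis thaliana, 484 regions were called as m6A peaks in both replicates of mta plants and shared no base on the same strand with any wild-type peak. They are called mta-alone regions here. To choose them, same-strand peaks of the 2 mta lists were merged wherever they shared at least 1 base, regions with a peak of each list were kept, and regions that met a wild-type peak of either replicate were set aside. Of 973 regions found in both mta lists, 484 were mta-alone (49.7%, 95% Clopper-Pearson interval 46.6 to 52.9%) and 489 met a wild-type peak. Merging all 4 lists gave 11522 regions in all. Of the mta regions seen in 1 list, 67.3% met no wild-type peak, which was 1396 regions. The wild-type lists shared 5513 regions. The members were thus chosen by the presence or absence of peak calls, with no use of the peak scores, and these counts are a description. The share was 79.3% when every list was shortened to the length of the shortest.

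The study compared Col-0 wild type with ABI3:MTA, written mta, plants of the same ecotype whose MTA methyltransferase is made from a transgene with the ABI3 promoter, which is active in embryos. Leaves 5 to 9 were taken from soil-grown plants 4 weeks old, 4 h after first light. Growth was at 22 °C under a day of 16 h light and 8 h dark, and 7 µg of poly(A)+ RNA went into each replicate. Each genotype had 2 antibody-bound libraries (m6A+) with a peak list. Unbound (supernatant) libraries are labelled too but were not analysed here. The labels do not say whether replicates are separate plants, and the spread between replicates could be technical. Wild-type replicate 1 had 8973 peaks and replicate 2 had 6584, while mta replicate 1 had 1934 and replicate 2 had 2092. Per the deposited lists the lowest score was 13 in 3 of them and 20 in mta replicate 2, whose peak names are also built differently; the part of this in the results was not tested. The lists give no read counts, so the depth of each library is unknown, and a region missing from a list cannot be told apart from one covered too thinly to be called.

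N6-methyladenosine (m6A) is a methyl mark that a nuclear writer complex places on adenosines of messenger RNA, with MTA as its catalytic subunit. In leaf messenger RNA the mark is known mainly around stop codons and in 3' UTRs, and it lies mostly within the consensus RRACH (R for a purine, H for any base but G), of which GGACU is one form. miCLIP maps it by crosslinking an anti-m6A antibody to RNA with ultraviolet light and sequencing the bound fragments. Complete loss of MTA stops embryo development, and expression from the ABI3 promoter carries plants past that stage while later tissues make little of the enzyme.

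The sequences of 10 mta-alone regions are shown first because they rank highest by score among the regions inside a single coding exon. They are read 5′ to 3′ on the RNA strand, from the TAIR10.1 assembly of RefSeq, with T for U, and capitals mark RRACH matches.
AT1G10390, chr1:3409772-3409842, minus strand: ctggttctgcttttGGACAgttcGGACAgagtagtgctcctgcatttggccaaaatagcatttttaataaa
UBQ13, chr1:24277109-24277170, minus strand: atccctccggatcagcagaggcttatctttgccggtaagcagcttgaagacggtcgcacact
AT3G53650, chr3:19889519-19889628, plus strand: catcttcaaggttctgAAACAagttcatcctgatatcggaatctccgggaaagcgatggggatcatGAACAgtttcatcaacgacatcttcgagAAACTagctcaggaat
AT2G26750, chr2:11396414-11396481, minus strand: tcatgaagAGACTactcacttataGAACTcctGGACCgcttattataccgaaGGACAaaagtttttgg
AT4G22305, chr4:11790914-11790975, minus strand: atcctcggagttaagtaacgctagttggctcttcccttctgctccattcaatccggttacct
ERD2, chr1:21117225-21117291, plus strand: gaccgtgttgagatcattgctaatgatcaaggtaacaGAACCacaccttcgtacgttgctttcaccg
SYNC1, chr5:22938763-22938817, plus strand: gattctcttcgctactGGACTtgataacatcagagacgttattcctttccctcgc
PDE149, chr5:3919687-3919752, plus strand: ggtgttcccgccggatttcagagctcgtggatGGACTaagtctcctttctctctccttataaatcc
EIF2, chr2:16699720-16699775, minus strand: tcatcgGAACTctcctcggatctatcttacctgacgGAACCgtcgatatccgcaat
SBH1, chr1:26195357-26195421, minus strand: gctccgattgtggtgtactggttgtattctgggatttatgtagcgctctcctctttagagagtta

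The 5 highest-ranked 3' UTR regions are shown by the 30 bases at their centre, since they give the closest comparison with where wild-type peaks usually lie.
TOPP5, chr3:17242012-17242041, minus strand: GAACCtccacgagtagtctccgaagttgca
CDT1, chr1:19671428-19671457, minus strand: gagtactgtatatattaatGAACAaatttt
PDF1.2, chr5:17907128-17907157, minus strand: cactctatgagtaactttatgacatgcata
HTA11, chr3:20197578-20197607, plus strand: attagttaatttGAACTctttaggttcctt
AGP10, chr4:5792745-5792774, plus strand: gtttggacgatagaattaaatcattaatca

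The highest-ranked small nucleolar RNA (snoRNA) regions are shown because this class of short nuclear guide RNA was more frequent among the mta-alone regions than among those that met a wild-type peak.
AT5G07095, chr5:19624604-19624680, plus strand: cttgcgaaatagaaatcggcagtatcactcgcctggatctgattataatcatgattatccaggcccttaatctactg
SNOR108, chr5:16598839-16598923, plus strand: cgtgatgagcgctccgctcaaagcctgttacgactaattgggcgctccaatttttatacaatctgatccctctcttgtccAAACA
AT1G05907, chr1:8756209-8756271, minus strand: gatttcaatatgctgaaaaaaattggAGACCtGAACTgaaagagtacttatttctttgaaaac

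Most mta-alone regions lay in coding sequence (CDS). By midpoint, 287 of 484 were in CDS, 83 in 3' UTRs, 14 in 5' UTRs, 39 on noncoding genes, 21 between genes, 9 in introns and 4 antisense to a gene. A further 8 fell on exons of several genes, 6 on a gene but outside its representative coding transcript, 8 on the mitochondrial and 5 on the chloroplast genome. Of the 384 placed on a coding transcript, 74.7% were in CDS (95% interval 70.1 to 79.0%) and 21.6% in the 3' UTR. The regions that met a wild-type peak had 11.6% of 438 in CDS and 87.7% in the 3' UTR. Wild-type regions in both lists had 3.66% of 5138 in CDS. The mta-alone regions were therefore a coding-sequence set, whereas both other sets were 3' UTR sets. Wild-type peaks lie mostly in 3' UTRs and the rule removes what they touch, so these shares are tied to the rule and are given with no test. mta regions seen in 1 list and meeting no wild-type peak had 78.0% of 1198 in CDS, close to the share of the mta-alone regions. All intervals here cover counting error only. The members lay on every nuclear chromosome, from 71 on chromosome 4 to 124 on chromosome 1, with 231 on the plus and 253 on the minus strand.

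**Figure D1:**
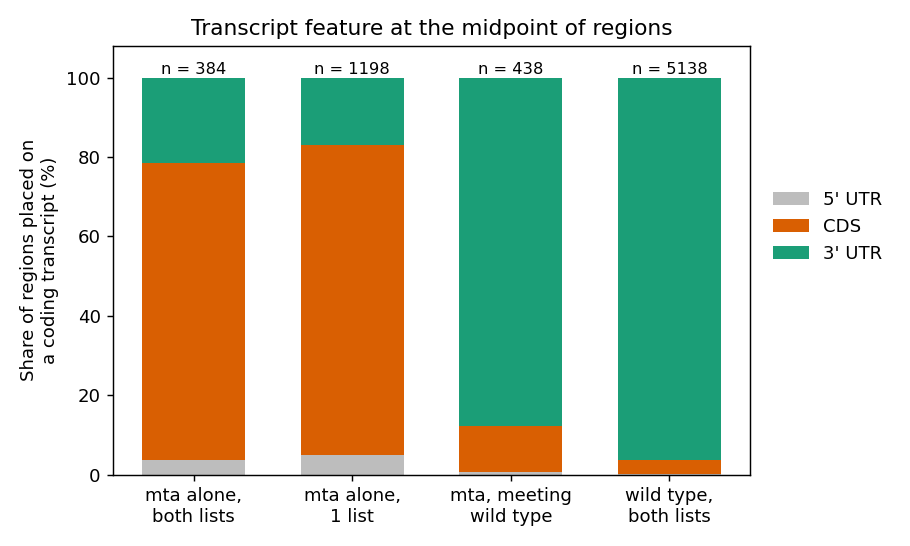
Stacked bars give the share of regions (%, vertical axis) whose midpoint lay in the 5' UTR, CDS or 3' UTR of the representative transcript, for 4 sets of regions with the number placed above each bar. CDS makes up 74.7% of the mta-alone regions of both lists and 3.66% of the wild-type regions.

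The coding regions were spread along the reading frame. With each CDS cut into 5 equal parts from the start codon, the mta-alone regions held 24.7, 17.8, 16.4, 15.3 and 25.8% in turn. Wild-type CDS regions had 80.9% in the last part and 3.72% in the first. The 100 nt before the stop codon held 20.2% of the mta-alone CDS regions (15.7 to 25.3%), against 72.5% of those that met a wild-type peak and 73.4% of wild-type ones. Within 100 nt of the start codon lay 14.3% of the mta-alone CDS regions and 1.06% of wild-type ones. mta CDS regions of 1 list that met no wild-type peak had 15.6% near the stop codon and 14.5% near the start. Wild-type CDS regions found in both lists lay mostly near the stop codon, and the rule removes what wild-type peaks touch. Positions in CDS, and those in 3' UTRs below, are thus tied to the rule and given with no test. The coding sequences that carried mta-alone CDS regions were of middling length, with a median of 957 nt against 846 nt for those meeting wild type and 1282.5 nt for wild type. Transcripts of 1 exon held 12.5% of the mta-alone CDS regions, against 5.88% of those that met wild type and 4.79% of wild-type ones, and 20.2% of all coding transcripts have 1 exon. In 77.7% of cases the whole region lay inside 1 exon of the representative transcript, counting any UTR part of that exon. The others reached past an edge of an exon. The 83 regions in 3' UTRs had midpoints a median of 92 nt past the stop codon (quartiles 43.5 and 144.5), against 86 nt in mta regions of 1 list that met no wild-type peak, 118 nt in regions that met wild type and 116 nt in wild type.

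**Figure D2:**
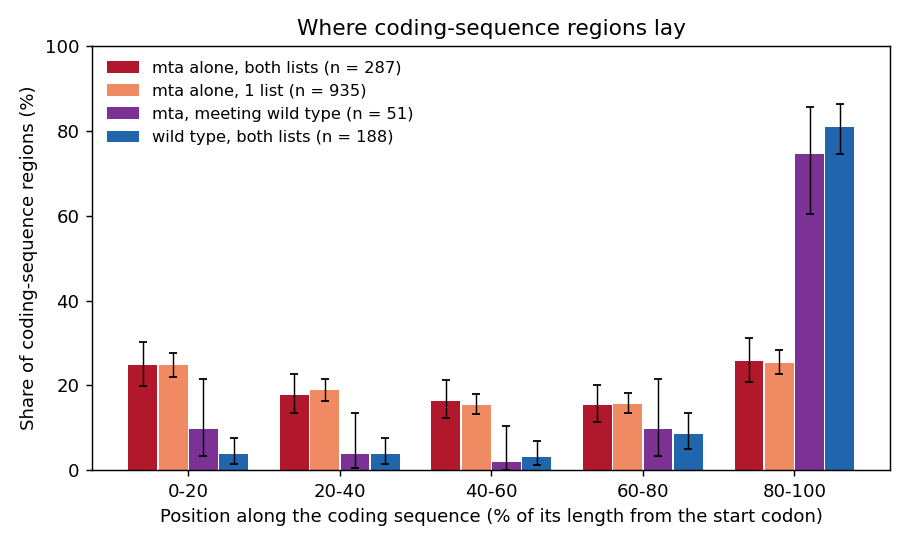
Bars give the share of CDS regions (%, vertical axis) in each of 5 equal parts of the coding sequence from start to stop codon (horizontal axis, % of its length), with 95% Clopper-Pearson intervals for counting error. The mta-alone bars stay between 15.3 and 25.8%, and the wild-type bar of the last part reaches 80.9%.

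The authors' scores placed the mta-alone regions around the middle of both mta lists, with few at the top of both. Peak scores have no stated scale, so a score is used only as its percentile within its own list. In replicate 1 the member peaks had scores of 13 to 137 with a median of 36, at a median percentile of 57.3. In replicate 2 they had scores of 21 to 170 with a median of 56, at a median percentile of 60.7. Regions that met a wild-type peak had median percentiles of 57.3 and 52.2, so neither set stood above the other in both lists. Across the 484 regions the percentiles of both lists went together (Pearson r 0.596, Spearman rho 0.602, a description over regions that share their libraries). Both percentiles were at least 50 for 224 regions (46.3%) and at least 90 for 29 (5.99%). Among the 489 regions that met a wild-type peak, these counts were 184 (37.6%) and 36 (7.36%). The member peaks were short, with a median width of 57 bp in each replicate, and 64.5 and 63.6% of them were at most 60 bp wide, where 50 bp is the narrowest peak in any list. Peaks of regions that met wild type had median widths of 64 and 58 bp.

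**Figure D3:**
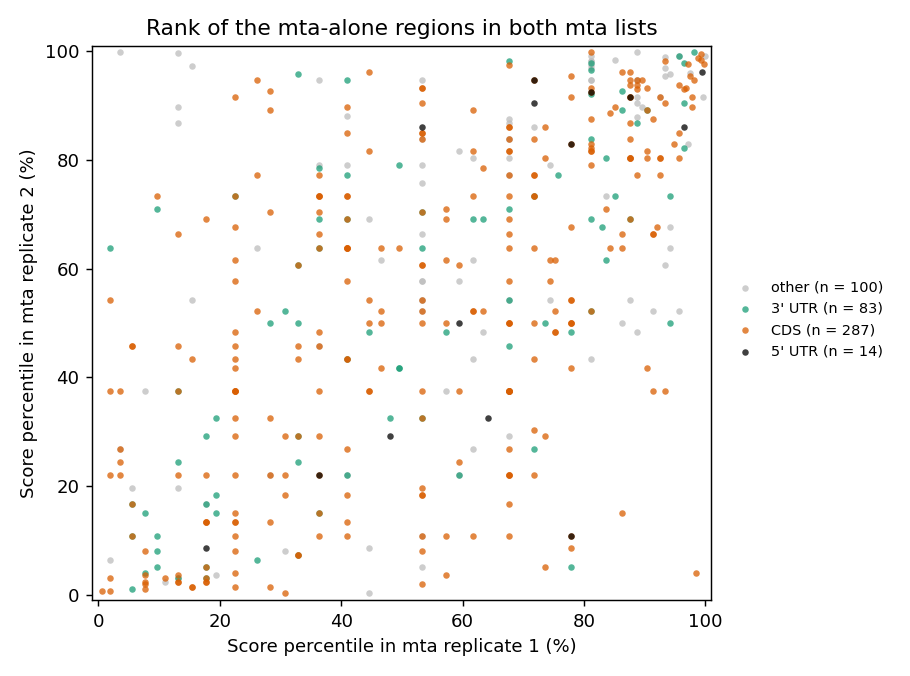
Each point is 1 of the 484 mta-alone regions, placed by the percentile of its peak score within mta replicate 1 (horizontal axis, %) and mta replicate 2 (vertical axis, %), and coloured by transcript feature. The points spread over the whole range with r 0.596, and CDS regions occur at every level.

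The highest-ranked coding regions fell on genes of varied function. AT1G10390, annotated as a nucleoporin autopeptidase (nucleoporins build the nuclear pore), had scores of 85 and 140 in mta replicates 1 and 2. Its region lay 1707 nt into a CDS of 3126 nt, and the gene had no wild-type peak. AGP10, an arabinogalactan protein of the cell surface, had 2 mta-alone regions. The first, with scores of 82 and 123, had its midpoint 9 nt before the stop codon, and the second, with scores of 58 and 81, lay 128 nt past it, yet no wild-type peak was called on this gene. AT2G09970, a protein of unknown function with a DUF1677 domain, was likewise marked 9 nt before its stop codon, with scores of 85 and 114. UBQ13, a polyubiquitin made of repeated ubiquitin units, had scores of 94 and 110 at 135 nt from its start codon. Near-identical polyubiquitin genes exist, and how the authors treated reads that match several places is not given in the sources used here, so its source gene is uncertain.

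Several other high-ranked coding regions sat 77 to 181 nt from the start codon of genes that carried wild-type peaks farther downstream. EIF2, annotated as a translation initiation factor, had scores of 70 and 88 at 181 nt from the start codon, and its nearest wild-type peak lay 840 spliced nt away. PDE149, a TerC-family integral membrane protein, had scores of 69 and 92 at 107 nt, with the nearest wild-type peak 1172 spliced nt away. SBH1, a hydroxylase of sphingoid bases, had scores of 76 and 84 at 77 nt, with a wild-type peak 780 spliced nt away. These genes were thus called in both genotypes at different places. ERD2, an HSP70 chaperone, had scores of 62 and 113 at 111 nt and no wild-type peak. AT4G22305, an alpha/beta-hydrolase, had scores of 77 and 93 at 110 nt. AT2G26750 of the same superfamily had scores of 73 and 94 at 556 nt and no wild-type peak. SYNC1, annotated as a class II aminoacyl-tRNA synthetase, differed in having its region, with scores of 71 and 90, 51 nt before the stop codon and 169 spliced nt from the nearest wild-type peak.

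Among 3' UTR regions, TOPP5, a type 1 protein phosphatase, had scores of 77 and 170 at 113 nt past the stop codon, and a wild-type peak lay 88 bp from its edge. CDT1, a small cadmium-tolerance protein, had scores of 69 and 126, and PDF1.2, a plant defensin used as a marker of jasmonate responses, had scores of 70 and 112. HTA11, a histone H2A, had scores of 70 and 83. The last 3 of these genes had no wild-type peak. In 5' UTRs the top regions were on AT3G57930 (scores of 87 and 100), AT2G28060, a subunit of a SNF1-related kinase complex (70 and 75), and PBE1, a proteasome subunit (54 and 84), and each of these genes held at least 2 wild-type peaks elsewhere.

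The 374 protein-coding genes with an mta-alone region in an exon were often genes whose RNA was also called in wild type. Of them, 204 (54.5%, interval 49.3 to 59.7%) had a wild-type peak elsewhere in the gene, where 28.4% of 27529 protein-coding genes had any. Genes marked in CDS and genes marked in the 3' UTR differed in this. Of 277 genes with an mta-alone CDS region, 172 (62.1%) had a wild-type peak elsewhere and 161 had one in the 3' UTR. Of 81 genes with an mta-alone 3' UTR region, 20 (24.7%, interval 15.8 to 35.5%) had one, near the share of all genes. The rule shapes this comparison, since a wild-type peak in the 3' UTR is more likely to touch, and so remove, a 3' UTR region than a CDS region. On 171 CDS regions the transcript had a wild-type peak, and for 169 of them the nearest one was downstream. The median distance over the 171 was 583 spliced nt (quartiles 253 and 880.5). Of wild-type regions placed on a coding transcript, 96.2% lay in the 3' UTR, so the downstream side was largely set in advance. Of the 277 genes, 19 (6.86%) also held an mta region that met wild type, against 439 of all 27529 protein-coding genes. The 54.5% depends on the wild-type threshold: it was 25% with a score of at least 50 required in every list and 17.7% with every list shortened to the length of the shortest.

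Edges of wild-type peaks were rarely near. Gaps under 10 bp occurred for 4 regions, under 100 bp for 40 and under 500 bp for 87. The members nearest to a wild-type peak were on AT2G33390 (gap of 1 bp), G6PD1 (4 bp), AT2G36680 (5 bp), ZFP7 (9 bp) and AT5G11640 (14 bp), with scores in replicate 1 between 16 and 38. Just outside the rule, TAS3, a noncoding precursor of small RNAs, shared 12 bp with a wild-type peak, AT5G62610 and LCAT3 shared 13 bp each, and DREB26 and NADK2 shared 16 bp each. Leaving out either mta list raised the number of mta-alone regions, since 1 list then sufficed, to 1347 without replicate 1 and to 1023 without replicate 2. Requiring a score of at least 50 in every list lowered it to 139, of which 98 overlapped a member. Shortening every list to the shortest raised it to 698, of which 443 overlapped a member.

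Core histone genes, which encode the proteins that package DNA, were the most concentrated of 19 gene lists. Of the 374 genes 8 were core histones (2.14%), against 51 of all 27529 (0.185%), 0 of 439 genes whose region met wild type and 3 of 5118 genes with a wild-type region in both lists. They were AT3G53650 with 2 CDS regions (scores of 72 and 110, then 47 and 54), HTA12 (41 and 55) and HTA2 (27 and 41) in CDS, and HTA11, RAT5 (42 and 64), AT1G09200 (31 and 51), AT4G40030 (33 and 46) and HTA6 (22 and 27) in the 3' UTR. Of these, 6 had no wild-type peak, while HTA12 had 2 and HTA2 had 1. HTA2, AT1G09200, AT4G40030 and HTA6 were named after their values were seen. Histone genes have close relatives, and although each of these regions had a central 50 nt found once in the assembly, the source gene of its reads remains uncertain. The sequences of the histone CDS regions beyond the one already shown were as follows, with RRACH in capitals.
AT3G53650, chr3:19889681-19889773, plus strand: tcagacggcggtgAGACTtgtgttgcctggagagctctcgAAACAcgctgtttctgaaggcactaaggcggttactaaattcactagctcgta
HTA12, chr5:575568-575627, plus strand: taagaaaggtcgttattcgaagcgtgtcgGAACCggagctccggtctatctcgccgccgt
HTA2, chr4:13637571-13637626, minus strand: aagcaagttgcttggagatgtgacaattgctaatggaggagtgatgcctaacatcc

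Other gene lists, drawn by keywords in the annotation, held between 0 and 12 member genes each. The keywords for translation factors matched 5 genes (1.34% against 0.552% of all genes), among them EIF2 and AT5G11900, a SUI1-family initiation factor with scores of 32 and 53. The same keywords took in AT2G34750, an RRN3 factor of RNA polymerase I transcription and not of translation, and MEE5, annotated as an elongation factor G family protein. MEE5 was also 1 of the 6 genes matched for ribosomal proteins (1.60% against 1.34% of all genes), a list that matched 28 of the 439 genes whose region met wild type. Of the other ribosomal matches, AT5G55140, of the L30 family, had scores of 42 and 52 and AT2G40590, of the S26e family, had 26 and 87. Kinases and transcription factors made up 12 genes each (3.21%), against 4.91 and 4.14% of all genes. Among kinases, the uridine kinase family gene AT1G73980 had scores of 69 and 69 in CDS, and the casein kinase ckl8 had 43 and 69. The top transcription factor was TCP3, a regulator of leaf shape, with scores of 62 and 94 at a place outside its representative coding transcript, followed by AT2G28810, a Dof zinc finger factor, with 48 and 111 in its 3' UTR and GATA5 with 48 and 85 in its 3' UTR. Arabinogalactan and other hydroxyproline-rich cell wall proteins numbered 4 (AGP10, AGP7, EXT4 and AGP24; 1.07% against 0.963% of all genes). Chaperones also numbered 4 (1.07% against 1.05%). ERD2 led, followed by the DnaJ-family genes AT5G17840 (54 and 92) and AT5G16650 (58 and 69). Their CDS regions lay 111, 92 and 103 nt from the start codon in turn. The other chaperone gene, AT1G18700 (79 and 29), had its region 1599 nt into a CDS of 2217 nt. Zinc finger proteins made up 9 genes (2.41% against 3.15% of all genes), ubiquitin and proteasome proteins 7 (1.87% against 3.58%) and RNA-binding proteins 3 (0.802% against 1.56%). A single gene (0.267%) came from each of the lists of nucleoporins (0.0872% of all genes), photosystem and Rubisco proteins (0.345%), cytoskeleton proteins (0.944%) and transposable element proteins (0.389%). No member gene was found in the lists of glycine-rich proteins, late embryogenesis proteins, chromatin and replication proteins, m6A writers, readers and erasers (22 genes) or embryo and seed markers (16 genes). The absence of embryo markers bears on called regions alone, since a peak list does not measure RNA levels and the leaf identity of the samples was not checked with it.

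Several mta-alone regions on 1 gene occurred 16 times, with 3 regions on each of 2 genes and 2 on each of 14. UMAMIT45, a transporter of the nodulin MtN21 family, had 3 CDS regions with scores of 41 and 109, 41 and 70, and 31 and 100, and no wild-type peak. RLP49, a receptor-like protein locus annotated as a transcribed pseudogene, had 3 regions with replicate 1 scores of 41, 41 and 22. RLP53, a receptor-like protein, had a region with scores of 48 and 147 and another with scores of 27 and 21. AT4G14390, an ankyrin repeat protein, had 2 CDS regions, and DYL1, a dormancy-associated protein, had 2 regions in its 3' UTR. The RLP49 regions and the weaker RLP53 region occur more than once in the assembly, so their source is uncertain. Among 471 nuclear members, 26 (5.52%) had a central 50 nt with another exact copy, against 13 of 486 (2.67%) in regions that met wild type.

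On noncoding genes, snoRNAs led with 16 of 39 regions, which was 3.31% of all mta-alone regions (interval 1.90 to 5.31%), against 3 of 489 (0.613%) of those that met wild type. The share was also low in mta regions of 1 list that met no wild-type peak, at 10 of 1396 (0.716%). Wild-type regions in both lists had 2 of 5513 (0.0363%). AT5G07095 had scores of 62 and 124, SNOR108 had 62 and 103, and AT1G05907 had 64 and 97. The other noncoding members were 5 transcribed pseudogenes, 4 pseudogenes, 4 miscellaneous RNAs, 4 ncRNAs, 3 lncRNAs, 2 spliceosomal snRNAs and 1 tRNA. AT1G04107, a miscellaneous RNA, had scores of 92 and 84. snoRNAs, snRNAs and tRNAs generally lack a poly(A) tail. On the organelle genomes the highest-ranked region was mitochondrial, with scores of 48 and 113, followed by a chloroplast region with 55 and 78.

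The sequence around the coding regions differed from that around wild-type coding regions, and the rule did not use sequence. The sets also differed in place, with midpoints a median of 421 nt from the stop codon in mta-alone and 34 nt in wild-type CDS regions. Windows around regions were cut from the genome, so some can hold intron or UTR bases. The part of either in these shares was not tested. In windows that reached 50 nt either side of the midpoint, RRACH occurred in 72.8% of the 287 mta-alone CDS regions (67.3 to 77.9%), in 79.8% of 188 wild-type CDS regions and in 72.6% of 318280 windows tiled over all coding sequences. Over the whole window, RRACH was thus close in frequency to coding sequence at large in the mta-alone regions. Its matches were uneven within the window. The 20 nt just upstream of the midpoint held 39.0 RRACH matches per 100 mta-alone CDS regions, against a mean of 26.6 per 20 nt of tiled CDS. From 20 to 40 nt downstream there were 20.6. Just upstream, wild-type CDS regions had 41.0 and mta CDS regions of 1 list that met no wild-type peak had 40.4. GGACU alone was found in 13.2% of mta-alone CDS windows (9.54 to 17.7%), in 4.79% of wild-type ones (2.21 to 8.89%) and in 6.61% of tiled ones. mta regions of 1 list that met no wild-type peak had 14.9%, and the 51 mta CDS regions that met wild type had 13.7%. The purine repeat GAAGAA went the other way, with 7.67% in mta-alone CDS windows, 22.9% in wild-type ones and 12.9% in tiled ones. The pyrimidine motif CUCUUC was found in 11.5, 2.13 and 5.93% of the same sets. mta CDS regions of 1 list that met no wild-type peak had GAAGAA in 10.2% and CUCUUC in 7.70%. The 51 mta CDS regions that met wild type had them in 19.6 and 13.7%. URUAY (Y is C or U), a motif linked to m6A in plants, was found in 27.9% of mta-alone, 35.1% of wild-type and 25.3% of tiled windows. Motifs were searched on the RNA strand alone, with T for U; GGACU is one of the forms of RRACH. A match is a description and not a modified site.

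**Figure D4:**
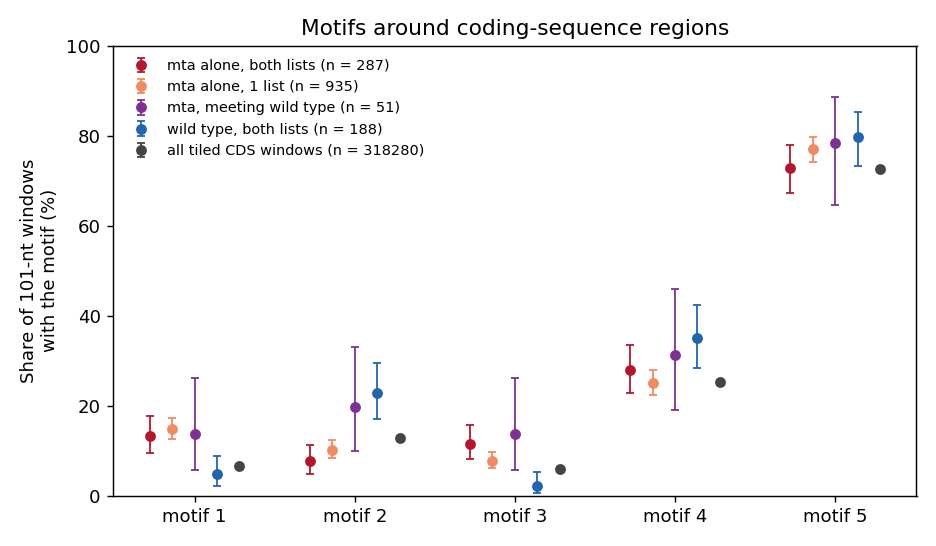
Points give the share of CDS windows of 50 nt either side of the midpoint (%, vertical axis) with at least 1 match, with 95% Clopper-Pearson intervals; motif 1 is GGACU, motif 2 GAAGAA, motif 3 CUCUUC, motif 4 URUAY and motif 5 RRACH. For motif 2 the wild-type point stands at 22.9% and the mta-alone point at 7.67%, and for motif 5 the points lie between 72.6 and 79.8%.

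Of all 6-letter words in the CDS windows, AUCGGA stood farthest above coding sequence at large, in 10.1% of mta-alone windows against 2.27% of tiled and 2.66% of wild-type windows. UUGGAC followed, in 8.36% against 2.72% of tiled windows, and UCGGAU was in 7.67% against 2.14%. These words were picked for their excess, so the values describe these windows and support nothing. In the sequences above, AUCGGA occurs in the first AT3G53650 region and in EIF2, and UCGGAU in EIF2. UUGGAC occurs in AT1G10390 and in the 3' UTR region of AGP10. UGGACU, which was in 6.97% of mta-alone against 2.58% of tiled windows, occurs in SYNC1 and PDE149.

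Matches to GGAC were not spread evenly around the midpoint. The 20 nt just upstream of it held 18.8 matches per 100 mta-alone CDS regions, and the next 20 nt downstream held 6.27. From 20 to 40 nt downstream there were 1.39 and from 40 to 60 nt 0.697, below the mean of 5.00 per 20 nt of tiled CDS. The 935 mta CDS regions of 1 list showed 17.9 just upstream and 2.46 from 20 to 40 nt downstream. Wild-type CDS regions showed 8.51 just upstream. The 83 mta-alone 3' UTR regions showed 8.43 just upstream and 3.61 just downstream. The profile was drawn after the motif counts were seen and is a description.

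**Figure D5:**
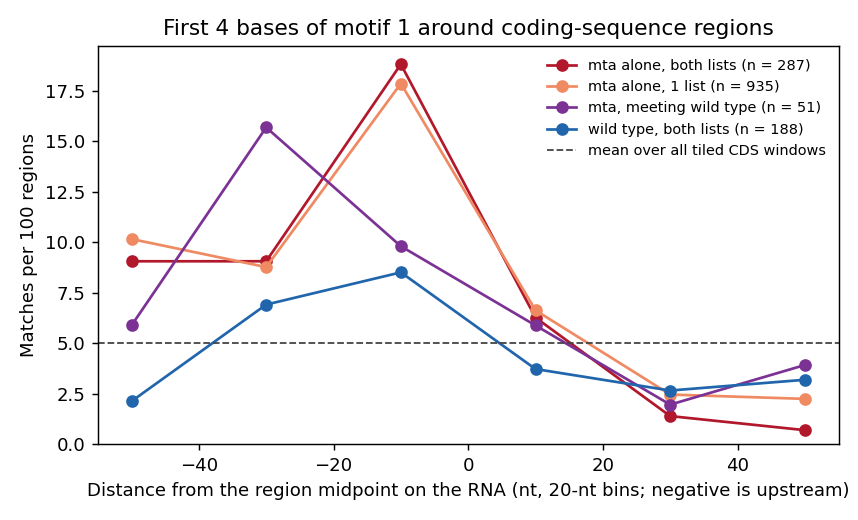
Lines give matches to the first 4 bases of GGACU per 100 CDS regions (vertical axis) in 20-nt bins by distance from the region midpoint (horizontal axis, nt, negative is upstream on the RNA), and the dashed line is the mean over tiled coding sequence. Both sets of mta regions that met no wild-type peak reach 18.8 and 17.9 in the bin just upstream of the midpoint, and wild type reaches 8.51.

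Per library, the bases around CDS peaks differed between genotypes by more than the spread of replicates, in a design too small to pass a threshold. In wild-type replicates 1 and 2 the mean purine share around all CDS peaks was 56.5 and 58.4% (57.4% ± 1.35, SD, n = 2). The mta replicates had 48.9 and 49.5% (49.2% ± 0.419, SD, n = 2). The groups did not overlap, and mta was lower by 8.22 percentage points (a difference of -8.22), with an exact two-sided permutation p = 0.33, the smallest that 2 against 2 allows. All tiled CDS windows had 51.6%, between the genotypes. Wild-type replicates had 698 and 545 CDS peaks, and the mta replicates 755 and 934, so the mta lists held more CDS peaks although they listed fewer peaks in all. Wild-type CDS peaks had median widths of 59 and 60 bp (59.5 ± 0.707, SD, n = 2). Those of mta had 55 and 53 bp (54.0 ± 1.41, SD, n = 2), a difference of -5.50 bp with the same exact permutation p = 0.33. The width difference was -47.5 bp with a score of at least 50 in every list and -53.0 bp with lists shortened to the shortest.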

How the data were processed

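The 4 m6A+ peak lists were used as deposited. The submitters' processing notes name TAIR10, MACS2 and STAR 2.4.0; for MACS2, its version, control and threshold were not stated. Peaks were called per library and per strand, per the peak names in the deposited lists. The score of each peak is the authors' deposited value, of unstated scale. The other deposited columns used were chromosome, start, end and strand.

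Midpoints were placed on RefSeq TAIR10.1 gene models (the transcript with the longest coding sequence); mitochondrial regions were not placed. Shares have 95% Clopper-Pearson intervals (scipy 1.17.1, numpy 2.4.6, Python 3.11.15, matplotlib 3.10.9), which cover counting error. Library means were compared by an exact permutation test. Overlap, position and motif code was tested on simulated data. Named genes were the highest by mean score percentile (12 CDS, 5 3' UTR, 3 5' UTR, 4 noncoding, 4 organelle), genes with several regions, the best of each gene list, and those nearest the rule's limit. Members, lists, motifs and tests were chosen with earlier results of these data known.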

Additional observations from a re-analysis of the deposited data

How the results depend on the processing

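Counting a wild-type peak within 100 nt as met gave 45.6% of regions as mta-alone, and within 500 nt 40.8%, where 42.8% of genes had a wild-type peak elsewhere. With a score of at least 50 in every list, 139 regions (73.2%) were mta-alone, 98 of them overlapping a member; 55.2% were in CDS and 25% of genes had a wild-type peak elsewhere. With every list shortened to the shortest, 698 regions (79.3%) were mta-alone, with 51.7% in CDS and 17.7% of genes. With the score limit applied to the mta lists alone, an alternative chosen after seeing the data, 98 regions were left and 47.9% of genes had one. RRACH was found in 49.2% of windows of 25 nt either side, 85.3% of 100 nt either side and 57.1% of the regions themselves. Leaving out 1 list at a time gave 530 to 1347 regions, 52.9 to 64.4% of regions, 67.0 to 77.6% in CDS, 68.4 to 73.1% with RRACH, 44.1 to 58.5% of genes with a wild-type peak elsewhere, and differences of -9.17 to -7.27 points in purine share and -6.50 to -4.50 bp in width. The cause of these shifts was not tested. A score of 50 falls differently in each list, with a median score of 29 in wild-type replicate 2 and 52 in mta replicate 2. The highest score in wild-type replicate 2 was 58, so the limit left that list only its peaks scored 50 to 58. The highest scores of the other lists were 161 in wild-type replicate 1, 137 in mta replicate 1 and 203 in mta replicate 2. Pairing replicates by number (replicate block) left the differences at -8.22 points and -5.50 bp with exact sign-flip p = 0.5, the smallest that 2 pairs allow; 2 pairs cannot show whether the numbers pair the samples. No alternative reversed the sign of the purine or width difference. The width difference moved most, to -47.5 bp with the score limit in every list and -53.0 bp with shortened lists. The 25 and 17.7% of genes lay below the 28.4% of all genes, but that share was taken from the full lists alone. Read depth is unknown and limits every absence from a list.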
